A study of Mus musculus with 9 samples.

Results

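A group of 10 genes of the hypoxia pathway were followed in 9 RNA-seq libraries of mouse heart: the oxygen-regulated transcription factor subunits Hif1a, Epas1 and Hif3a, their partner Arnt, the prolyl hydroxylases Egln1, Egln2 and Egln3, and the targets Adm, Ndrg1 and Ankrd37. They were chosen by name, as the rows whose mouse Ensembl ID carries one of these symbols, and all 10 were found among the 53465 gene rows of the files. All 10 passed the filter on low counts that left 13825 genes for testing. The hearts came from NOD-SCID mice, an immunodeficient strain, and the infarct border zone is the labelled region in every group. There were 3 libraries after sham surgery, 3 after coronary artery ligation, and 3 after the same ligation with implanted FOXO3-GE-MPCs, called the cell group here. The labels used here give no age and no time after surgery, do not spell out what the implanted cells are, and include no group that received other cells. For the cell group's replicates 2 and 3, 1 label names another FOXO member, while the title and treatment labels name FOXO3 and were followed.

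Libraries held 4549268 to 7515052 gene counts, the fewest in ligation replicate 1 and the most in ligation replicate 3. In the column names of the files, sham replicates 1 and 2 share a name stem, as do ligation replicates 2 and 3, so some libraries may come from the same animal, and p-values then measure partly technical spread. Results are therefore also given, where it matters, with such libraries added together. The cardiomyocyte markers were abundant in every group, summing over 7 genes to 37831 ± 433 CPM (SD, n = 3) in sham, with 27860 ± 1142 after ligation and 26270 ± 631 with cells. CPM is the read count scaled to library size with TMM factors.

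Cells sense oxygen through this pathway. When oxygen is present, the prolyl hydroxylases encoded by the Egln genes modify the alpha subunits, which are then bound by the von Hippel-Lindau protein and degraded. When oxygen is short, an alpha subunit persists, pairs with the protein of Arnt and activates genes that carry a hypoxia response element, Egln3 itself among them. Because this control acts on protein, transcript levels of the factors do not measure their activity. In the heart, coronary occlusion is a classical setting for the response, and Epas1 is known for its high expression in endothelial cells.

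Levels of different genes were compared per kilobase of annotated exon. In sham hearts Epas1 stood at 121 ± 0.700 CPM per kb (SD, n = 3) and Egln1 at 111 ± 3.15. Egln3 followed at 34.6 ± 1.57 and Egln2 at 24.9 ± 1.32 CPM per kb. Ndrg1, at 12.4 ± 0.911, and Hif1a, at 11.2 ± 0.992, overlapped across libraries. Adm reached 8.19 ± 0.857 CPM per kb. Arnt, at 5.90 ± 0.225, and Ankrd37, at 5.03 ± 0.805, overlapped as well, and Hif3a was last at 0.316 ± 0.0306. In ligated hearts Hif1a rose to 18.5 ± 0.187 CPM per kb, above every library of Ndrg1 (12.6 ± 0.325).

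The sequence just upstream of the genes is shown because the factors among them bind DNA at a hypoxia response element whose core reads ACGTG or GCGTG. Both words were searched on both strands in the 250 bases before each RefSeq start (assembly GRCm38.p6). Matches may overlap, and the palindrome CACGTG counts once on each strand. Windows were held for 8 of the 10 genes, 9 windows in all, since Egln2 has a pair, and each held at least 1 match. Over all 32851 promoter windows of that length 38.6% did. Both words contain the letters CG, which occurred 4 to 51 times in the 9 windows. The share over all windows was not matched for that, so it is no test of enrichment. Epas1 and Ndrg1 had no entry. The 4 windows below belong to a factor that rose after ligation (Hif1a), a hydroxylase that rose after ligation and was lower with cells (Egln3), and 2 targets that were lower with cells than in sham (Adm and Ankrd37). Capitals mark the matches, the reverse words being CACGT and CACGC.
Hif1a: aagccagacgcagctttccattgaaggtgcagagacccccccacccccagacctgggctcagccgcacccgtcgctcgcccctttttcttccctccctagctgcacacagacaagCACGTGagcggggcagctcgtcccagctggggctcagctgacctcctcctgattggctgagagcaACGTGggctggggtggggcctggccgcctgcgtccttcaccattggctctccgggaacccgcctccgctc
Egln3: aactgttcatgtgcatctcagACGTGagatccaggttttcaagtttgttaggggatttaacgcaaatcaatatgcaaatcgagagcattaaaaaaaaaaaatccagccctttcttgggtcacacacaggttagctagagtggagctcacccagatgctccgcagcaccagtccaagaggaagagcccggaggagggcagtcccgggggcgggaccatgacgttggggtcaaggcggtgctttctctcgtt
Adm: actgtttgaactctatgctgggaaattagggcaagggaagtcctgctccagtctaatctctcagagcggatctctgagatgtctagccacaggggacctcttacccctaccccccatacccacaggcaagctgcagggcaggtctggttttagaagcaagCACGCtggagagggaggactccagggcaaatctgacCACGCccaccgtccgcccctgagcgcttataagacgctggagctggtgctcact
Ankrd37: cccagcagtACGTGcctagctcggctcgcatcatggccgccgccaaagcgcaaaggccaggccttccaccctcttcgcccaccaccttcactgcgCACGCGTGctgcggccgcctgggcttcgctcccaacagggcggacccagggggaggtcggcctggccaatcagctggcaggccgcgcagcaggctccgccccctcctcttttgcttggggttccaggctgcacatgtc
The Hif1a window is chr12:73907617-73907866 on the plus strand, inside the annotated gene and before an inner start. That of Egln3 is chr12:54203875-54204124 on the minus strand, that of Adm chr7:110627407-110627656 on the plus strand, and that of Ankrd37 chr8:45999868-46000100 on the minus strand, also inside the annotated gene and before an inner start, where 17 exonic bases next to that start are left out. Hif1a held 3 matches at 135, 134 and 70 bases before the start, and Egln3 1 match at 229 bases. Adm held 2 at 90 and 54 bases. Ankrd37 held 4, at 241, 155, 152 and 6 bases, the last in the part not shown. At least 3 matches were found in 6.58% of all windows, and in those of Hif1a, Ankrd37 and 1 of Egln2 here. A match describes letters and was not tested as a binding site.

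The first comparison asked how the pathway differed after ligation. Hif1a and Egln3 rose and Epas1 fell, while the other 7 genes did not pass the test. That is 3 of 10 genes at a Benjamini-Hochberg adjusted p under 0.05 (edgeR, quasi-likelihood F test over all genes), against 38.2% of all genes tested (20.1% higher and 18.0% lower). The CPM ranges of ligation and sham did not overlap for the same 3 genes, against 47.6% of all genes. The share of members called was thus no larger than the background. With library totals in place of TMM factors, which moves the median log2 fold change of all genes up by 0.19, 6 members were higher and 1 lower, with Arnt, Egln1, Egln2 and Ndrg1 added, at log2 differences of 0.20 to 0.28, close to that shift.

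Hif1a (ENSMUSG00000021109, chr12:73901375-73947530, plus strand, GRCm38) was at 63.4, 61.9 and 72.7 CPM in the sham libraries. It was at 108, 110 and 110 CPM after ligation and at 108, 115 and 112 CPM in the cell group. Every ligated library, with or without cells, lay above every sham library. The log2 fold change of ligation against sham was 0.73 (SE 0.0676, edgeR adjusted p 2.97e-08), a 1.65-fold rise. Annotated exons of an antisense and a second sense gene cover 8.11% of its exon length. Reads there may be left out as ambiguous, which would lower its counts, or be misassigned.

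Epas1 (ENSMUSG00000024140, chr17:86753700-86833410, plus strand) moved the other way. It was at 677, 671 and 678 CPM in sham, at 483, 517 and 511 CPM after ligation and at 489, 488 and 457 CPM with cells. The sham libraries were the highest and lay close together, and no ligated library reached them. The log2 fold change after ligation was -0.42 (SE 0.0439, edgeR adjusted p 1.50e-07), and -0.23 with library totals (adjusted p 0.000232). In CPM per kb the ratio of Epas1 to Hif1a was 10.8 ± 0.878 (SD, n = 3) in sham hearts, 4.86 ± 0.130 in ligated hearts and 4.51 ± 0.232 where cells had been implanted. This ratio is formed within a library, so scaling cannot change it. Both ligated groups differed from sham with an exact permutation p of 0.1 (two-sided), the smallest that 3 against 3 libraries allow, and the cell group overlapped ligation (exact permutation p 0.2).

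Markers of several cell types moved with these genes. All 7 endothelial markers were lower after ligation by the same test, and their sum went from 1988 ± 59.9 CPM in sham to 1338 ± 36.9, with 1446 ± 25.4 in the cell group. The 7 cardiomyocyte markers included 4 lower and 1 higher after ligation. Of the 6 fibroblast markers 4 were higher and 1 lower, and their sum went from 1766 ± 27.8 to 2670 ± 34.1 CPM, with 2642 ± 30.0 in the cell group. Of 6 smooth muscle and pericyte markers 4 of the 5 tested were lower, the sum being 1591 ± 27.4, 1135 ± 14.8 and 1138 ± 18.1 CPM in sham, ligation and cells. Set against the endothelial sum, Epas1 stood at 0.340 ± 0.0119 in sham, 0.376 ± 0.00531 in ligation and 0.331 ± 0.00978 with cells. The 7 markers fell unequally after ligation, Kdr from 516 to 278 CPM and Pecam1 from 427 to 333 CPM. The direction of such a ratio therefore depends on the marker that Epas1 is set against. In bulk tissue fewer cells of a type and less RNA per cell cannot be told apart, and the part of cell makeup in the changes of Hif1a and Epas1 was not tested further.

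**Figure D1:**
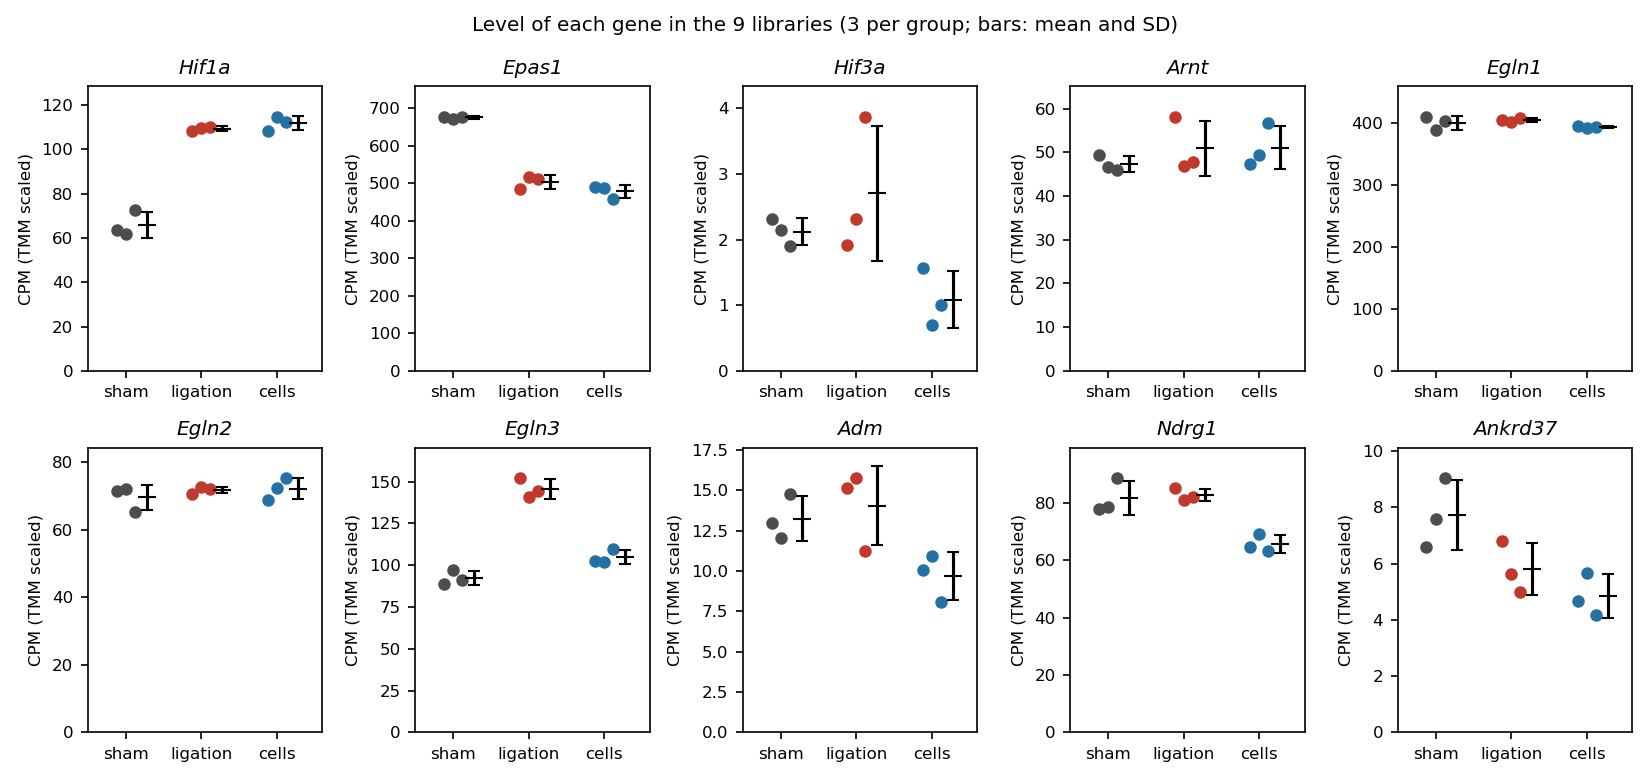
Level of the 10 genes in CPM (vertical axis, TMM scaled, from 0) in each library of the sham, ligation and cell groups (points), with mean and SD of 3 libraries (bars). Hif1a is higher and Epas1 lower in all ligated libraries, Egln3 peaks in ligation, and Ndrg1 is lowest with cells.

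The remaining subunits showed no call after ligation. Arnt (ENSMUSG00000015522, chr3:95434388-95497240, plus strand), the constitutive partner, ranged from 45.9 to 49.3 CPM in sham, from 46.9 to 58.2 in ligation and from 47.2 to 56.6 with cells, so the 3 groups overlapped. Its log2 fold change after ligation was 0.10, with a 95% interval from -0.10 to 0.29. Hif3a (ENSMUSG00000004328, chr7:17031507-17062427, minus strand), the remaining alpha subunit, some forms of which restrain the others, had only 5 to 31 counts per library. It was at 2.31, 2.14 and 1.90 CPM in sham and at 1.92, 2.32 and 3.88 CPM in ligation, with overlapping ranges and a log2 fold change of 0.40 (95% interval -0.38 to 1.18), which was 0.00038 without ligation replicate 3.

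Among the hydroxylases, Egln3 changed and its 2 relatives did not pass. Egln3 (ENSMUSG00000035105, chr12:54178981-54203860, minus strand) was at 88.8, 96.9 and 91.0 CPM in sham, 152, 141 and 144 CPM in ligation and 103, 102 and 109 CPM with cells. The 3 groups were fully separate, with ligation highest and the cell group nearer to sham. The log2 fold change after ligation was 0.66 (SE 0.0614, edgeR adjusted p 3.10e-08). Egln1 (ENSMUSG00000031987, chr8:124908587-124949324, minus strand), the main hydroxylase of the alpha subunits in most cells, stayed between 388 and 410 CPM in all 9 libraries, and the 95% interval of its log2 change after ligation ran from -0.07 to 0.11. Egln2 (ENSMUSG00000058709, chr7:27158658-27166802, minus strand) stayed between 65.4 and 75.3 CPM, with an interval from -0.09 to 0.19.

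Per kilobase, Egln1 made up 65.2% ± 1.46 (SD, n = 3) of the summed hydroxylase transcripts in sham, 58.3% ± 0.521 in ligation and 62.7% ± 0.948 with cells. The Egln3 share was 20.3% ± 1.07, 28.4% ± 0.833 and 22.5% ± 0.575 in the same order. The Egln2 share was 14.6% ± 0.694, 13.3% ± 0.339 and 14.8% ± 0.480. For Egln1 and Egln3 the libraries of the 3 groups did not overlap. Each pair of groups had an exact two-sided permutation p of 0.1, the smallest possible here. The shares are parts of 1 sum, and Egln1 itself stayed between 388 and 410 CPM. Its lower share in ligation is thus the counterpart of higher Egln3 and no separate result. Which cells carried Egln3 was not tested.

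**Figure D2:**
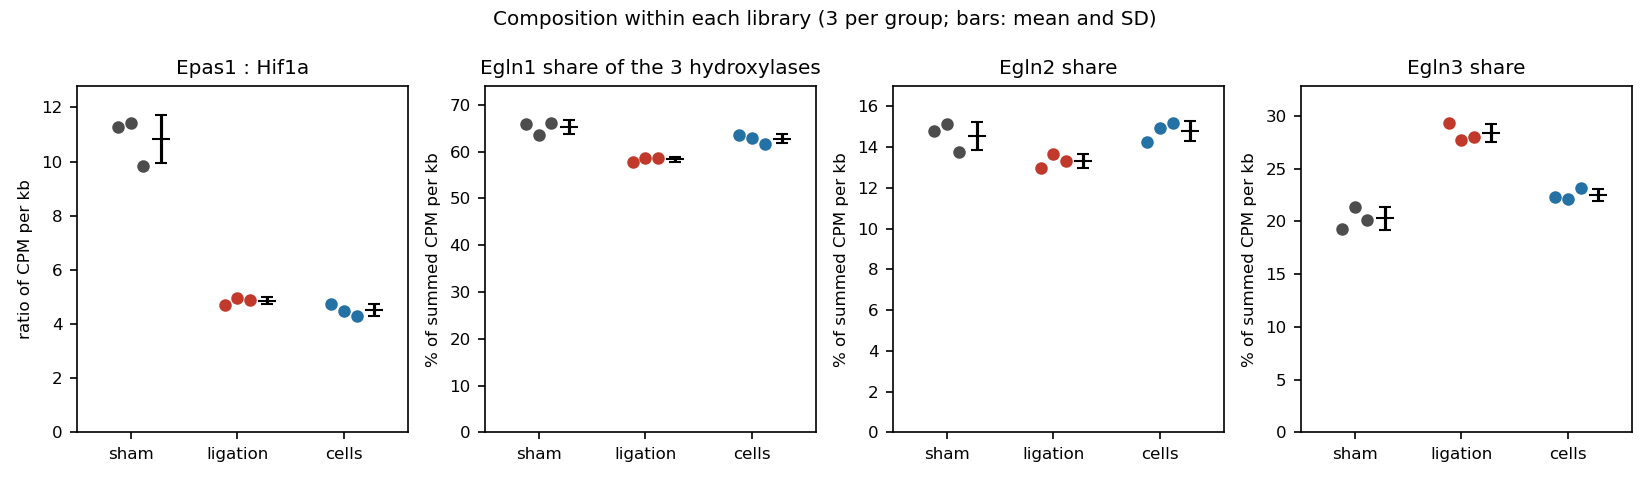
Ratio of Epas1 to Hif1a and share of each hydroxylase in the sum of Egln1, Egln2 and Egln3 (vertical axes, from CPM per kb) in each library (points) by group, with mean and SD of 3 libraries (bars). The Epas1 to Hif1a ratio is 10.8 in sham and 4.86 in ligation, and the Egln3 share is highest in ligation at 28.4%.

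The targets did not pass after ligation. Adm, which encodes the vasodilator peptide adrenomedullin, ranged from 12.03 to 14.8 CPM in sham and from 11.3 to 15.8 in ligation. Ndrg1, a stress-responsive gene of the NDRG family, averaged 81.8 ± 6.01 CPM in sham and 82.8 ± 2.14 after ligation (SD, n = 3), with a 95% interval of the log2 change from -0.13 to 0.16. Ankrd37, an ankyrin repeat gene known as a hypoxia target, averaged 7.74 ± 1.24 CPM in sham and 5.82 ± 0.922 after ligation, and its log2 fold change of -0.44 had an interval from -0.90 to 0.02. None of the 3 was higher after ligation by this test, and at an unadjusted p under 0.05 none of the 3 passed either.

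Ligated hearts with and without FOXO3-GE-MPCs were compared next. Egln3, Ndrg1 and Hif3a were lower with cells, while Hif1a, Epas1, Arnt, Egln1 and Egln2 did not pass. These 3 of 10 genes compare with 9.87% of all genes tested (4.19% higher and 5.69% lower). No member was higher past the threshold by edgeR's quasi-likelihood test, by DESeq2 or by limma-voom, and at an unadjusted edgeR p under 0.05 there were 0 higher and 4 lower, where 1495 of the 13825 genes were higher and 1651 lower. The CPM ranges did not overlap for 5 members, Adm and Egln1 being the others, against 27.2% of all genes.

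Egln3 fell by 0.48 on the log2 scale with cells (SE 0.0602, edgeR adjusted p 1.49e-05), and the fall lay between 0.45 and 0.51 in the fits that each left out 1 library. Ndrg1 (ENSMUSG00000005125, chr15:66929318-66969640, minus strand) was at 78.0, 78.7 and 88.7 CPM in sham, 85.2, 81.2 and 82.0 CPM in ligation and 64.7, 69.4 and 63.2 CPM with cells. All 3 libraries of the cell group were below the other 6. Its log2 fold change against ligation was -0.33 (SE 0.0687, edgeR adjusted p 0.00294). Exons of a pair of noncoding genes cover 8.43% of its exon length. Egln3 and Ndrg1 passed in every alternative of this comparison.

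Hif3a was at 1.56, 0.694 and 1.01 CPM with cells, below every ligation library. Its log2 fold change against ligation was -1.35 (SE 0.406, edgeR adjusted p 0.0384), on 11, 5 and 7 counts. The call was lost with DESeq2 (adjusted p 0.163), with the replicate block (adjusted p 0.0594), with libraries summed by name stem (adjusted p 0.0758), and without ligation replicate 2 or 3 or cell replicate 2 or 3. Without ligation replicate 3, which alone held 31 counts, the log2 fold change was -0.97. By the rule for like profiles, the 3 genes closest to Hif3a over the 9 libraries were Fcgr3, Coro7 and Btbd19, with root mean square differences of 0.238, 0.246 and 0.249 in centred log2 CPM. Macrophage markers moved in the same direction: all 6 were lower with cells than in ligation, and their sum was 300 ± 11.2 CPM in sham hearts, 443 ± 12.8 after ligation and 178 ± 5.39 with cells. Their part in the Hif3a, Egln3 and Ndrg1 differences was not tested.

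Adm (ENSMUSG00000030790, chr7:110627661-110629820, plus strand) was at 13.0, 12.03 and 14.8 CPM in sham, 15.1, 15.8 and 11.3 CPM in ligation and 10.1, 10.96 and 8.07 CPM with cells. The cell libraries were the lowest, yet the log2 fold change of -0.52 against ligation (SE 0.168, edgeR adjusted p 0.0581) missed the threshold. It passed with library totals, with no filter on low counts, and without ligation replicate 3 (adjusted p 0.0208) or cell replicate 2 (adjusted p 0.0471). Ankrd37 (ENSMUSG00000050914, chr8:45996902-46005707, minus strand) was at 6.59, 7.58 and 9.05 CPM in sham, 6.82, 5.64 and 5.0 CPM in ligation and 4.68, 5.69 and 4.18 CPM with cells. Ligation and cells overlapped, with a log2 fold change of -0.24 (95% interval -0.72 to 0.25). Exons of Ufsp2 and Lrp2bp cover 26.4% of its exon length, so its counts are uncertain to that extent. For Hif1a the interval of cells against ligation was -0.10 to 0.17, and for Epas1 -0.17 to 0.02.

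Set against sham, the cell group held 6 of 10 members past the threshold, 2 higher and 4 lower, where 40.9% of all genes passed (21.0% higher and 20.0% lower). With library totals there were 5 higher and 1 lower. The ranges did not overlap for 7 members, against 49.8% of all genes. Hif1a (log2 fold change 0.76, SE 0.0671) and Epas1 (-0.50, SE 0.0439) kept their distance from sham in every alternative, with edgeR adjusted p-values of 1.29e-08 and 1.22e-08. Ndrg1 fell by 0.32 on the log2 scale (SE 0.0690, edgeR adjusted p 0.000953), a call lost with library totals, where the log2 fold change was -0.16 (adjusted p 0.0693). Egln3 was still 1.13-fold higher (log2 fold change 0.18, edgeR adjusted p 0.0235, and 0.34 with library totals), and Adm and Ankrd37 were lower at log2 fold changes of -0.45 and -0.68 (edgeR adjusted p 0.0406 and 0.0197). DESeq2 called none of these last 3 genes and 3 members in all. With libraries summed by name stem the Egln3 call was also lost (log2 fold change 0.17, adjusted p 0.0554), and 3 members passed without sham replicate 3 or without cell replicate 3. The Egln3 and Adm calls were lost without sham replicate 1 and those of Adm and Ankrd37 without cell replicate 1. With library totals Adm and Ankrd37 did not pass, at log2 fold changes of -0.29 and -0.52 (adjusted p 0.170 and 0.0635). All 3 comparisons reuse the same groups of libraries, so they are not independent of each other.

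**Figure D3:**
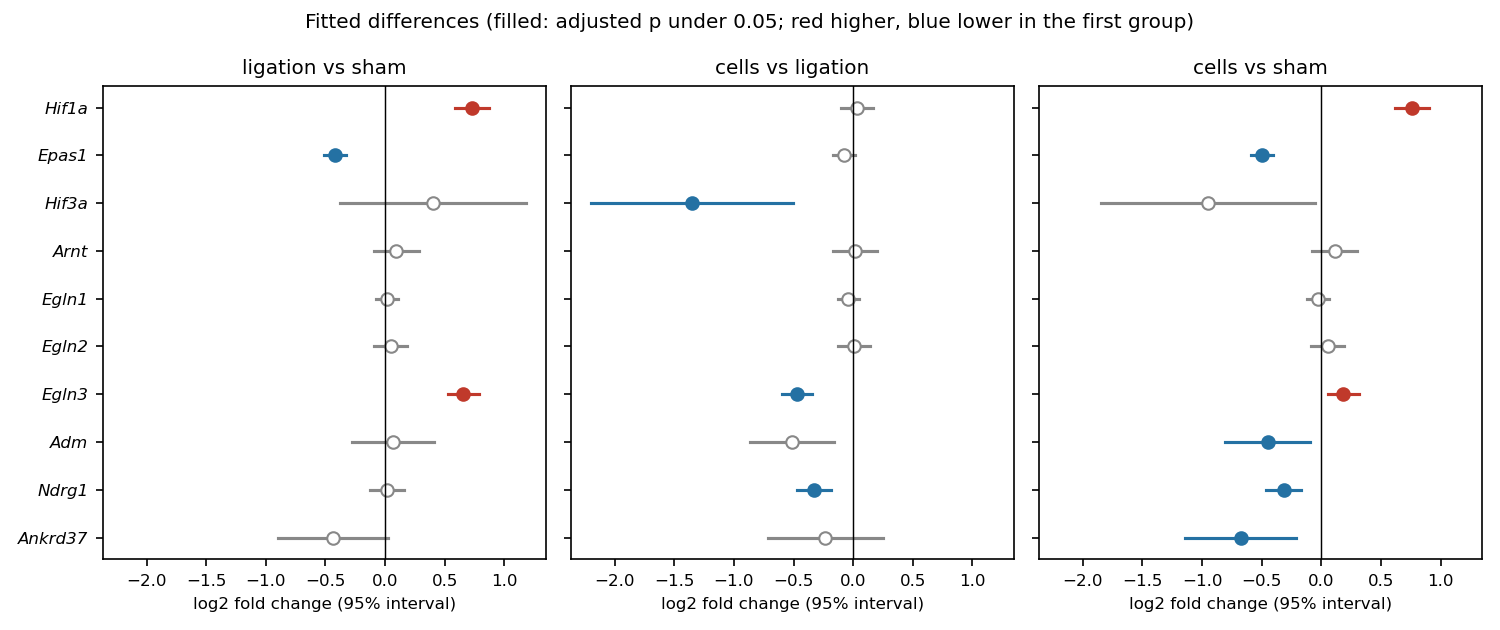
Fitted log2 fold change (horizontal axis) with its 95% interval for the 10 genes in the 3 comparisons, filled where the adjusted p was under 0.05. Hif1a and Epas1 differ from sham in both ligated groups, and Egln3, Ndrg1 and Hif3a are lower in cells against ligation.

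Other regulators of the pathway were read from a list of 16 genes, of which 15 were tested. After ligation 7 passed by edgeR's test, 3 higher and 4 lower, where 38.2% of all genes passed. Hif1an, the asparagine hydroxylase that blocks coactivator binding, rose by 0.51 on the log2 scale, from 39.6 ± 2.05 to 56.2 ± 4.64 CPM (SD, n = 3). Usp20, a deubiquitinase, rose by 0.41, and Cited2, which competes with the alpha subunits for their coactivators, rose by 0.26, a call lost with DESeq2 (adjusted p 0.0698) and without sham replicate 2 (adjusted p 0.0503). Cited4 fell by 1.02 on the log2 scale, from 26.0 ± 5.58 to 12.8 ± 0.757 CPM. Rbx1 and Elob, subunits of the ubiquitin ligase that contains the von Hippel-Lindau protein, fell by 0.59 and 0.42, though Elob shares 20.5% of its 31-mers with other genes. With library totals the log2 fold change was -0.23 for Elob and 0.44 for Cited2, both still past the threshold. Vhl itself did not pass, at 13.6 ± 1.10 CPM in sham and 16.2 ± 0.617 in ligation (edgeR adjusted p 0.152). With cells against ligation, where 9.87% of all genes passed (4.19% higher and 5.69% lower), only Cited2 passed, at 55.8 ± 0.499 CPM in ligation and 39.6 ± 1.17 with cells (log2 fold change -0.50, edgeR adjusted p 8.93e-05). In the fit as given there was no higher call, with 4 higher at an unadjusted edgeR p under 0.05, where 1495 of the 13825 genes were. DESeq2 gave 1 call in all, while limma-voom and several other settings gave 1 higher and 1 lower. Against sham, where 40.9% of all genes passed, the cell group had 4 regulators higher and 5 lower. Cited4, Rbx1 and Elob led the decreases at -0.70, -0.54 and -0.51 on the log2 scale. Hif1an rose by 0.62 and Siah2, a ubiquitin ligase of the hydroxylases, by 0.44. The Siah2 call was lost with DESeq2 (adjusted p 0.127) and without sham replicate 1 or 3 or cell replicate 2 or 3.

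Further known targets were read from a list of 36 genes. After ligation 20 were higher and 5 lower by edgeR's test, where 38.2% of all genes passed (20.1% higher and 18.0% lower), with a median log2 fold change of 0.26 against 0.01 for all genes. Lox, a collagen cross-linking oxidase, rose from 16.5 ± 1.84 to 55.1 ± 1.68 CPM (SD, n = 3; log2 fold change 1.74, edgeR adjusted p 8.95e-12). Car9, a carbonic anhydrase and classical hypoxia marker, had 0, 9 and 4 counts in sham and 10, 12 and 24 in ligation. Its log2 fold change of 1.66 (edgeR adjusted p 0.0252) was lost with DESeq2 (adjusted p 0.0706) and without sham replicate 1 or 3 or ligation replicate 3, and was 2.73 without sham replicate 2. Vegfa, the vascular growth factor, fell by 0.53 on the log2 scale, from 328 ± 10.95 to 226 ± 7.39 CPM. Higd1a and the glycolytic enzyme gene Eno1 fell by 0.56 and 0.44, though 27.2% and 28.5% of their 31-mers also occur elsewhere in the transcriptome. With library totals the log2 fold changes of Vegfa, Higd1a and Eno1 were -0.34, -0.38 and -0.25, all still past the threshold. Lox is also expressed by fibroblasts, whose marker sum rose, as given above, and the part of that was not tested.

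With cells against ligation 2 of the 36 targets were higher and 10 lower, or 12 against the 9.87% of all genes that passed. Their median log2 fold change was -0.11, against 0.00 for all genes. Hmox1, heme oxygenase, fell by 0.88 on the log2 scale, from 19.8 ± 1.22 to 10.8 ± 1.03 CPM (SD, n = 3, edgeR adjusted p 0.000301). Pfkfb3, an activator of glycolysis, fell by 0.58, and Igfbp3, which binds insulin-like growth factors, fell by 0.45. Hmox1 is abundant in macrophages, and their marker sum fell with it, as given above, which was not tested as a source. Vldlr, a lipoprotein receptor, rose from 163 ± 6.24 to 196 ± 3.25 CPM, and Tfrc, the transferrin receptor, rose from 140 ± 9.26 to 167 ± 8.15 CPM (edgeR adjusted p 0.0123). The Tfrc call was lost in 4 fits that left out 1 library, ligation replicate 2 or 3 or cell replicate 1 or 3, with adjusted p-values of 0.0553 to 0.0870. Against sham the cell group had 17 targets higher and 7 lower, where 40.9% of all genes passed (21.0% higher and 20.0% lower). Lox and Ppp1r3c, a glycogen-targeting phosphatase subunit, were among the increases at 1.49 and 1.33 on the log2 scale. Pfkfb3, Higd1a and Aldoa led the decreases at -0.92, -0.65 and -0.57. Much of this was already present with ligation alone for Ppp1r3c, at 102, 231 and 256 CPM in sham, ligation and cells. The same held for Aldoa, at 2851, 2169 and 1918 CPM in that order.

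**Figure D4:**
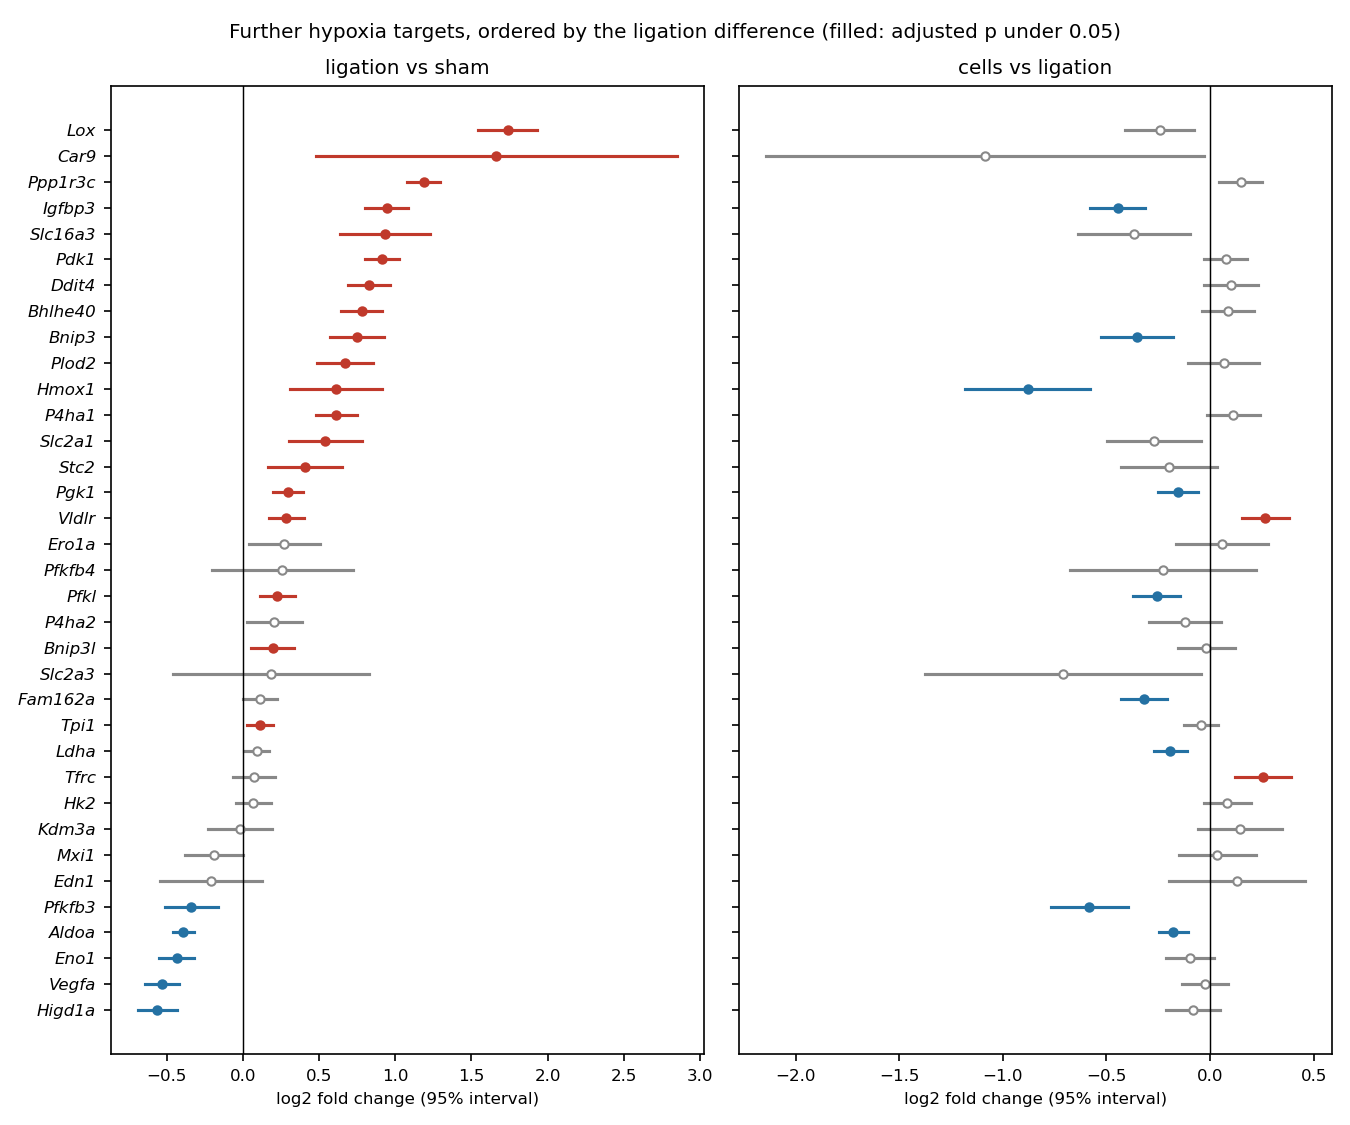
Log2 fold change (horizontal axis) with its 95% interval for 35 of the further hypoxia targets for the ligation effect and for cells against ligation, ordered by the former and filled where the adjusted p was under 0.05. Of those drawn, 19 are higher and 5 lower after ligation, and 2 are higher and 9 lower with cells.

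Relatives and partners of the 2 better known target families were a list of 10 genes, 9 of them tested. Pam, the enzyme that amidates adrenomedullin and other peptides, had 704 ± 26.6 CPM in sham hearts (SD, n = 3), then 1434 ± 42.6 after ligation and 1794 ± 24.2 with cells, and rose by 1.03 after ligation and by 0.32 with cells on the log2 scale. The receptor activity-modifying genes Ramp1, Ramp2 and Ramp3 encode partners of the receptor protein of Calcrl. They fell by 0.66, 0.34 and 0.43 after ligation, with edgeR adjusted p-values of 0.0129, 0.000479 and 0.0321. With library totals none of these 3 passed, at log2 fold changes of -0.47, -0.15 and -0.24, Ramp1 was also lost without sham replicate 2, and Ramp3 with DESeq2, with libraries summed by name stem (adjusted p 0.0552) and without sham replicate 1 or 2 or ligation replicate 1 or 2. For Ramp2, 31.7% of the 31-mers occur in other genes. Calcrl, the receptor gene itself, was at 61.3 ± 4.51 CPM in sham, 69.8 ± 5.23 in ligation and 72.3 ± 2.36 with cells, and the ligated groups overlapped. It did not pass after ligation and was higher by 0.24 with cells against sham, and by 0.40 with library totals. The call against sham was lost without sham replicate 2 (adjusted p 0.0762). Ackr3, a scavenger receptor of adrenomedullin, rose by 0.39 with cells against ligation, from 76.4 ± 3.06 to 100.1 ± 7.09 CPM. Ndrg4 rose by 0.44 after ligation and fell by 0.20 with cells against ligation (edgeR adjusted p 0.0126), a call lost without ligation replicate 2 or cell replicate 2. Of the 9 tested, 2 rose and 4 fell after ligation, where 38.2% of all genes passed. With cells against ligation 2 rose and 1 fell, where 9.87% of all genes passed. With cells against sham 3 rose and 1 fell, where 40.9% of all genes passed, and without cell replicate 2 there were 7 calls in place of 4.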

How the data were processed

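RNA-seq libraries, 3 per group, were made from total RNA extracted with TRIzol using the NEBNext Ultra RNA kit, per the labels' protocols. The authors deposited raw read counts per Ensembl gene with no normalization, 1 file per library, per the file headers. Build mm10 is named in the submitters' processing notes; the aligner, the counter and the strand setting are not given in the sources used here. The files end in rows named as htseq-count names them. Reads outside genes (4.14% to 4.91% of reads) and reads ambiguous between genes (8.09% to 8.72%) stayed out of library sizes and tests, which lowers counts of genes whose exons overlap another gene.

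Symbols came from GENCODE M21 (GRCm38) for all 10 genes. Ero1a was matched through a RefSeq synonym. Exon lengths, overlaps and shared 31-mers used GENCODE M21, and promoter windows came from RefSeq. Genes were kept with filterByExpr, scaled with TMM and fitted as group means across the 9 libraries by edgeR 4.0.16 (glmQLFit, glmQLFTest; 6 residual degrees of freedom) in R 4.3.3. P-values were adjusted over 13825 genes (Benjamini-Hochberg, threshold 0.05). A standard error is the log2 fold change divided by the square root of F, and the interval is at level 0.95. A depth of 3 counts equals 0.375 to 0.639 CPM, and counting error alone underlies that floor. The pipeline was tested on simulated data in which few genes changed, in both directions, so that run could not test the scaling between these groups.

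Named genes are the 10 members, and per related list and comparison up to 3 genes in each direction with the largest changes past the threshold at a mean of at least 1 CPM. Siah2, Usp20, Aldoa, Ppp1r3c and Calcrl entered by that rule, 1 gene that met it is not reported here, and Vhl was named after its values were seen. Like profiles were sought for members changed at least 2-fold, among genes of at least 5 CPM (log2 CPM with 0.5 added). Members, lists and tests were chosen with earlier results of these data known. Alternatives were DESeq2 1.42.0, limma-voom (limma 3.58.1), RLE factors, library totals, no low-count filter, removal of mitochondrially encoded genes, fits on 2 groups, a replicate block and leaving out each library. Summing libraries by name stem and a mean of at least 1 CPM were added after seeing the data. Counts of every replicate pair differed beyond sampling noise (mean chi-square 1.97 to 3.98 per gene), also within the pairs that share a name stem (3.98 and 2.31). Figures used matplotlib 3.10.9.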

Additional observations from a re-analysis of the deposited data

Results flagged for a closer look

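Reads that matched no annotated gene, which enter no comparison of the hypoxia genes, took a larger share in ligation than in the sham controls. The share was 4.75% ± 0.155 (SD, n = 3) in ligation and 4.21% ± 0.0350 in sham, with every ligation library above every sham library, and 4.22% ± 0.113 in the cell group.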

How the results depend on the processing

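Calls of members kept the direction and the side of the threshold in ligation against sham under all 19 alternatives, except that library totals gave 7 members in place of 3. Counts over fits without 1 library ran from 3 to 3, 2 to 3 and 3 to 6 members in the 3 comparisons. DESeq2 gave 3 members in cells against sham in place of 6, and 5 other regulators in place of 9. Other regulators in cells against ligation numbered 2 (1 higher and 1 lower) in place of 1 with limma-voom, RLE factors, no low-count filter, removal of mitochondrially encoded genes and libraries summed by name stem, and 1 to 2 in fits without 1 library (2 without sham replicate 2, ligation replicate 1 or ligation replicate 2). Relatives in cells against sham numbered 3 to 7 in fits without 1 library, with 7 without cell replicate 2 in place of 4. With the replicate number as a block, members numbered 3, 2 and 6 and the other regulators 2 in cells against ligation. The numbers are shared only by name, since deviations of same-numbered libraries correlated at -0.121 to 0.133 over 9414 genes, which are not independent. The cause of these moves was not tested.

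Differences near 0 changed sign, none past 0.05 except Egln1 in cells against sham with library totals (0.13, adjusted p 0.0161). With library totals Arnt became -0.0125 and Egln2 -0.0243 in cells against ligation. Without mitochondrially encoded genes Egln1 became -0.000961 and Ndrg1 -0.00221 after ligation, and Ndrg1 -0.000572 in the fit on 2 groups. With libraries summed by name stem Egln1 became -0.00332 and Ndrg1 -0.0178 after ligation, and Arnt -0.0138 in cells against ligation. Over fits without 1 library the ranges after ligation were -0.00813 to 0.0334 for Egln1, -0.0386 to 0.204 for Adm and -0.0190 to 0.0777 for Ndrg1. In cells against ligation they were -0.0649 to 0.107 for Arnt and -0.0275 to 0.0379 for Egln2. Depth limits the genes with few counts, Hif3a and Car9 among those described.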

Other observations

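Marker lists of other cell types, given as summed CPM (mean ± SD, n = 3), also differed between the groups. The 4 epicardial markers summed to 36.0 ± 5.75 in sham, 197 ± 19.4 in ligation and 150 ± 5.08 with cells, and all 4 were higher after ligation by edgeR's test. The 4 erythroid markers summed to 891 ± 27.3, 1544 ± 49.5 and 672 ± 8.64 in sham, ligation and cells, with 4 higher after ligation and 4 lower with cells against ligation. The 4 neutrophil markers were at 39.2 ± 4.28, 16.3 ± 3.77 and 5.89 ± 0.362, and all 3 that were tested were lower with cells than in ligation. Of 5 skeletal muscle markers 2 were tested, and the sums were 19.2 ± 3.04, 31.6 ± 0.967 and 37.0 ± 1.76, with Myh4 at 0 in sham and in the cell group. Most of that sum was Mybpc2 (18.3, 25.7 and 36.5 CPM), while each of the other 4 had a lower mean with cells than in ligation, and of the 2 tested 1 was higher and 1 lower. The 4 atrial markers summed to 528 ± 47.9, 1193 ± 387 and 1782 ± 343. After ligation 1 of them was higher and 3 were lower by the test, so the sum and most of its genes moved in opposite directions, and 3 were higher with cells than in ligation. The part of these cell types in the hypoxia genes was not tested.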
